A study of Homo sapiens with 10 samples.

Results

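A set of 7 protein-coding genes flanking *IGF1R* on chromosome 15q26 were followed in VCaP cells after knockdown of the chromatin remodelers *SMARCA4* or *SMARCA1*. They are named genes on either side of *IGF1R*, and the set leaves out other genes that lie between them. They are 7 of the 59386 genes listed in the count files. All 7 passed the expression filter, as did 16899 genes in all. *SYNM*, *TTC23*, *LRRC28*, *MEF2A* and *LYSMD4* lie beyond the 3′ end of *IGF1R*, and *ARRDC4* and *NR2F2* lie before its 5′ start. *TTC23* was higher in each of the 8 knockdown libraries than in both controls, by 3.08-fold after *SMARCA4* knockdown and 4.71-fold after *SMARCA1* knockdown. *LRRC28*, which starts 139 bp from *TTC23* on the opposite strand, rose 1.46-fold after *SMARCA4* knockdown and did not pass the test after *SMARCA1* knockdown.

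SMARCA4 (BRG1) is an ATPase of the SWI/SNF chromatin remodeling complexes, and SMARCA1 (SNF2L) is an ATPase of the ISWI family. Both use ATP to move or evict nucleosomes, and SWI/SNF activity is known to keep many enhancers accessible. An enhancer can act on a gene at a distance, on either side and past other genes, so neighbors of a remodeled locus are a natural place to look for changes in expression. *IGF1R* encodes the type 1 insulin-like growth factor receptor, and *IGF1R-AS1* is a long non-coding RNA transcribed antisense within it.

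VCaP is a human prostate cancer cell line that expresses the androgen receptor. The knockdown cells were harvested 72 h after transfection with 30 pmol of siRNA. For the controls the labels give 72 h too, but no amount of siRNA. Poly(A) RNA was sequenced in 2 libraries per condition. *SMARCA4* was targeted with siRNA A or siRNA B and *SMARCA1* with siRNA A or siRNA C, and the labels do not name the agent of the control. Loss of a remodeler and a response to the targeting siRNA itself therefore cannot be told apart in comparisons with control. All groups are the same line with no other treatment named. The question is how the genes around *IGF1R* differ between the knockdown libraries and the controls.

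Total counts lay between 23898545 and 34667965 per library. *SMARCA4* fell from 242 and 267 CPM (counts-per-million, normalized by the TMM method) in the controls to between 13.3 and 25.2 CPM with its siRNAs, and *SMARCA1* fell from 32.3 and 31.4 CPM to between 1.75 and 3.40 CPM with its own. *SMARCA1* itself was higher after *SMARCA4* knockdown (log2 fold change 1.07, adjusted p = 0.001, edgeR quasi-likelihood test). The summed level of 11 prostate luminal and VCaP markers was between 9861 and 11901 CPM in the 10 libraries. Within this list, single markers moved both ways at an adjusted p below 0.05 in the edgeR test. After *SMARCA4* knockdown 5 were higher and 1 lower (45.1% of all tested genes passed). After *SMARCA1* knockdown 2 were higher and 4 lower (46.8% of all tested genes passed). A list of 4 endothelial markers summed to at most 3.26 CPM. Of 11 stromal and smooth muscle markers, 7 stayed under 1 CPM in every library (*MYH11*, *CNN1*, *DES*, *COL3A1*, *DCN*, *PDGFRA* and *PDGFRB*), and the list summed to 26.9 and 30.5 CPM in the controls, 21.3 to 43.1 CPM in *SMARCA4* knockdown and 44.3 to 61.4 CPM in *SMARCA1* knockdown. Of 4 leukocyte markers, *PTPRC*, *CD3E* and *CD68* stayed under 1 CPM everywhere, and the list, with *LYZ*, summed to 0.520 and 0.794 CPM in the controls, 1.72 to 15.5 CPM in *SMARCA4* knockdown and 8.08 to 22.5 CPM in *SMARCA1* knockdown. Interferon response genes stood out, since all 23 tested rose in both knockdowns and their sum went from 290.2 and 297 CPM in the controls to between 15831 and 44380 CPM in the 8 knockdown libraries. Replicate 1 of *SMARCA1* siRNA A read low for *SYNM* and *MEF2A*, whose values are given below with and without single libraries. In bulk RNA, fewer cells with a transcript and less transcript per cell cannot be told apart.

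By the gap between gene bodies, the order outward from *IGF1R* was *SYNM* (134 kb), *TTC23* (172 kb), *LRRC28* (287 kb), *MEF2A* (601 kb), *ARRDC4* (675 kb), *LYSMD4* (751 kb) and *NR2F2* (2308 kb). *IGF1R* itself occupies chr15:98648539-98964530 on the plus strand of GRCh38. *SYNM* and *TTC23* meet tail to tail, *TTC23* and *LRRC28* stand head to head, and the 3′ ends of *MEF2A* and *LYSMD4* overlap by 770 bp on opposite strands. The start region shared by the head-to-head pair is shown first, since it holds the starts of the 2 genes called against control. The 300 bases from 250 before to 50 after the outer RefSeq start of *TTC23*, at chr15:99251176-99251475 of GRCh38.p14, share 245 bases with the same window of *LRRC28*. They are written 5′ to 3′ on the minus strand, the strand of *TTC23*, and capitals mark the 138 bases between the *TTC23* and *LRRC28* gene bodies of the count files, chr15:99251224-99251361.
*TTC23* and *LRRC28*, shared start: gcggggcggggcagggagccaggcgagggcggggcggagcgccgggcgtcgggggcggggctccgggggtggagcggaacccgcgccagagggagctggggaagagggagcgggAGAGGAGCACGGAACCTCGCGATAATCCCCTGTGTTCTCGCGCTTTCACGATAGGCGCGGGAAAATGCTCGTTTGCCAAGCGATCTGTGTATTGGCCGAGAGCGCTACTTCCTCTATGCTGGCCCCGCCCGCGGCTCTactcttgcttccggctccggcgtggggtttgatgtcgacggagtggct
The G and C content of this window is 69%, against a median of 58.7% over 34943 RefSeq promoter windows of the same length, and it holds 35 CpG dinucleotides on the strand shown, against a median of 14. RefSeq gives *TTC23* a second start further inside the gene, with its window at chr15:99249532-99249831, also on the minus strand.
*TTC23*, inner start: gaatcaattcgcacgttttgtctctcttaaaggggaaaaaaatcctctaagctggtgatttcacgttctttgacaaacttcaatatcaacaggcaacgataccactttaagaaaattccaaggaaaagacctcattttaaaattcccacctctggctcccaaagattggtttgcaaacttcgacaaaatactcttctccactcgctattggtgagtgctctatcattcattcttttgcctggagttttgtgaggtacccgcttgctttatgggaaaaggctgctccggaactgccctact

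A set of 4 short motifs was searched on both strands of the 12 RefSeq windows of the 7 genes. They were the E-box CACGTG, the core of the interferon-stimulated response element GAAANNGAA, the cyclic AMP response element TGACGTCA and the nuclear receptor motif AGGTCA, which are held by 7.23%, 8.1%, 1.84% and 13.8% of all windows. The only matches were E-boxes, 1 in the window of *ARRDC4* and 2 in the outer window of *NR2F2*. Both *NR2F2* windows lie inside the gene body of the count files, beginning at 96332315 and 96333515 against a gene start of 96325938. The *SYNM* window likewise begins at 99104830 against a gene start of 99098217. The outermost starts of *NR2F2* and *SYNM* in the count files were therefore not searched. The *ARRDC4* window is shown because E-boxes in its promoter are the known elements through which the glucose-sensing factor MondoA acts. It lies at chr15:97960453-97960752 on the plus strand, with the E-box in capitals, beginning 210 bases before the start.
*ARRDC4*, start: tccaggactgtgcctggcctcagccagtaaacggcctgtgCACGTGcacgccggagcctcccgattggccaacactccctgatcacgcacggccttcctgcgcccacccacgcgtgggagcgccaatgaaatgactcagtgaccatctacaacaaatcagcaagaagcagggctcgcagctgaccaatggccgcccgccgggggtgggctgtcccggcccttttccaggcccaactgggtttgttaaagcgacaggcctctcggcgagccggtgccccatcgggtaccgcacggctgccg
A match describes these letters only, and neither *TTC23* window holds any of the searched motifs.

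Levels were compared between genes as CPM per kb of exon length, since a longer gene collects more reads. In the controls *NR2F2* stood at 36.2 ± 0.727 (SD, n = 2), followed by *MEF2A* at 10.9 ± 0.437 and *SYNM* at 7.97 ± 0.107. *ARRDC4* (1.60 ± 0.209), *LYSMD4* (1.52 ± 0.127) and *TTC23* (1.59 and 1.41) came next, and the 2 control values of each neighbor in that order overlapped. *LRRC28* was lowest at 1.08 ± 0.0923. *TTC23* was thus place 6 of 7 in both controls. It took place 4 in all *SMARCA4* knockdown libraries and in replicate 2 of *SMARCA1* siRNA A, and place 3, above *SYNM*, in the other *SMARCA1* knockdown libraries.

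**Figure D1:**
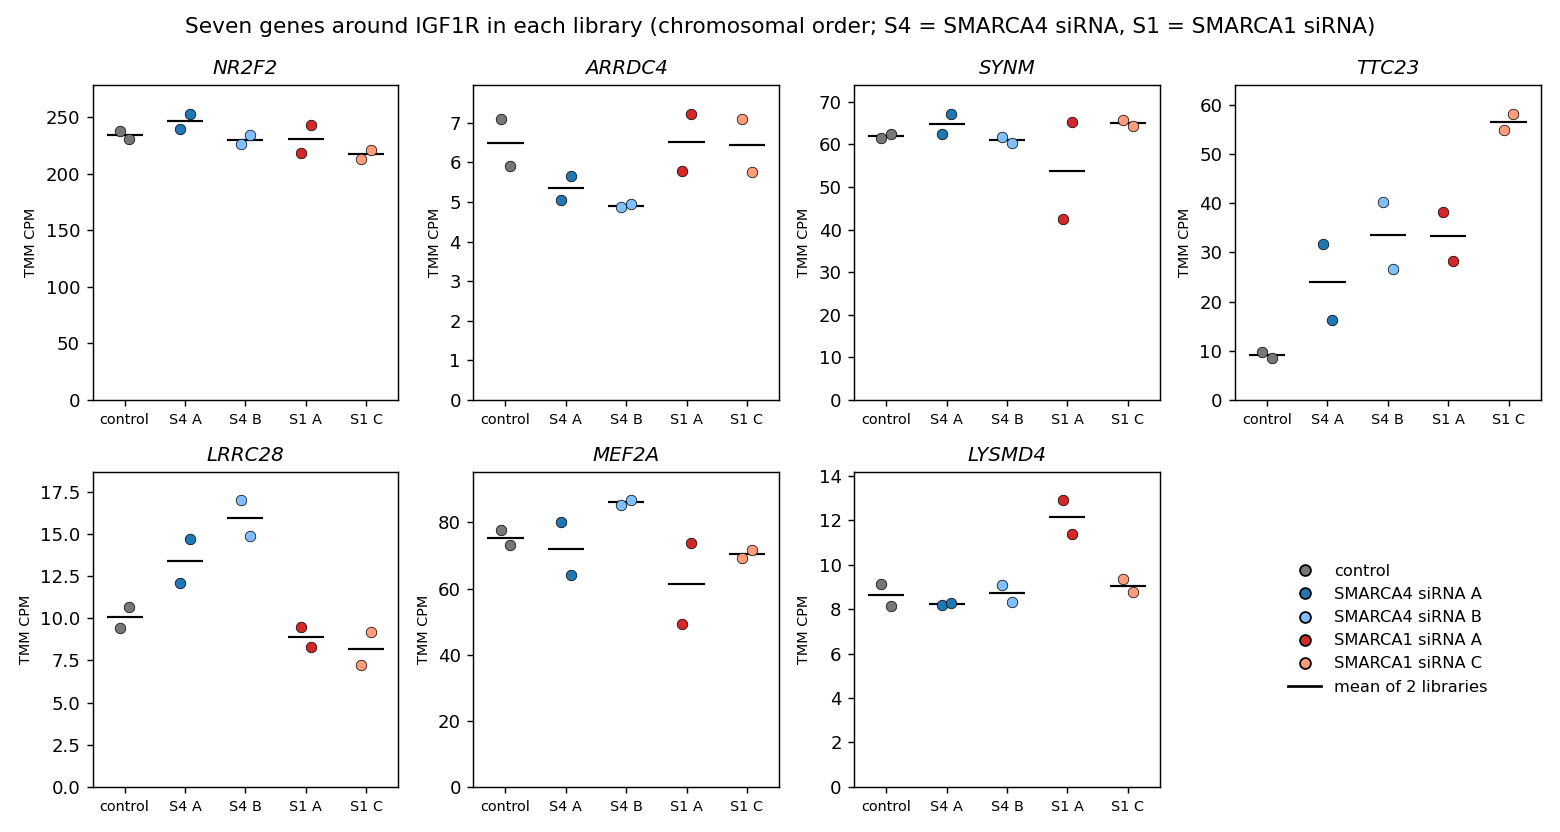
TMM-normalized CPM (vertical axis from 0) of each of the 7 genes in the 10 libraries, in chromosomal order, with 1 point per library and a bar at the mean of the 2 libraries of each condition (horizontal axis). *TTC23* lies between 16.3 and 58.2 CPM in the knockdown libraries against 8.65 and 9.78 CPM in the controls, while *NR2F2* stays between 213 and 253 CPM in all 10.

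After *SMARCA4* knockdown 2 of the 7 genes were called at an adjusted p below 0.05 (edgeR quasi-likelihood test, Benjamini-Hochberg over all 16899 genes), against 45.1% of all genes tested, and both had risen. After *SMARCA1* knockdown 1 of 7 was called, also a rise, against 46.8% of all genes. The median log2 fold change of the 7 genes was 0.02 and -0.07, beside 0.00 for all tested genes in both comparisons. Between the knockdowns themselves 3 of 7 differed, against 35.4% of all genes. As shares of the 7 genes these are 28.6%, 14.3% and 42.9%, of which the first and the second lie below the background and the last differs from it by less than 1 gene. Both knockdown comparisons use the same 2 control libraries.

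*TTC23* encodes a tetratricopeptide repeat protein found at the EVC zone of the primary cilium, where Hedgehog signals are relayed. The gene spans chr15:99136323-99251223 on the minus strand (ENSG00000103852.13). It measured 9.78 and 8.65 CPM in the controls (234 and 233 counts). With *SMARCA4* siRNAs it measured 31.8 and 16.3 CPM (siRNA A) and 40.2 and 26.7 CPM (siRNA B). With *SMARCA1* siRNAs it measured 38.3 and 28.3 CPM (siRNA A) and 54.9 and 58.2 CPM (siRNA C). Every knockdown library was above both controls, and the lowest of the 8 was replicate 2 of *SMARCA4* siRNA A. The log2 fold change was 1.62 (SE 0.28, 95% interval 1.00 to 2.24, adjusted p = 0.0011) after *SMARCA4* knockdown. It was 2.24 (SE 0.29, 95% interval 1.60 to 2.87, adjusted p = 0.00026) after *SMARCA1* knockdown. Counted from the largest rise, these were ranks 911 and 708 of the 16899 genes.

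Each siRNA alone raised *TTC23* against the controls in the edgeR test. The log2 fold changes were 1.38 and 1.86 for *SMARCA4* siRNAs A and B (adjusted p = 0.0069 and 0.0009), and 1.86 and 2.62 for *SMARCA1* siRNAs A and C (adjusted p = 0.0019 and 0.0002). The mean over *SMARCA1* siRNAs was the higher of the knockdowns, with a log2 difference of -0.62 for *SMARCA4* against *SMARCA1* knockdown (SE 0.20, adjusted p = 0.039). The libraries of the knockdowns overlapped, from 16.3 to 40.2 CPM against 28.3 to 58.2 CPM. This difference missed the threshold in 7 of the 10 fits that left out a single library, with values from -0.88 to -0.40 over all 10 and adjusted p up to 0.13. In contrast, the rises over control passed the threshold in all 19 alternative fits of each knockdown.

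Like *TTC23*, the interferon response genes were higher in all 8 knockdown libraries than in the controls. From the lowest to the highest interferon sum, the 8 knockdown libraries had 15831, 22781, 25108, 32443, 35883, 42959, 43981 and 44380 CPM of these genes. In the same order *TTC23* had 16.3, 28.3, 38.3, 31.8, 26.7, 40.2, 54.9 and 58.2 CPM. The library with the least interferon signal was also the lowest for *TTC23*, and those of *SMARCA1* siRNA C were highest for both. In between the order was not kept, as *TTC23* went down from 38.3 to 31.8 and 26.7 CPM while the interferon sum went up from 25108 to 32443 and 35883 CPM. The most similar patterns to *TTC23* among 13645 genes of at least 1 CPM on average were those of *PLAAT2*, *HIRA* and *CYP4B1*, with Pearson r of 0.996, 0.995 and 0.994 over the log2 levels of the 10 libraries. These values share the control libraries and the same normalization, and they are given as a description. The part of the interferon response in the rise was not tested, nor was that of the stromal list, whose sum was also higher in *SMARCA1* knockdown, or of the leukocyte list, whose sum was higher in all 8 knockdown libraries and highest with *SMARCA1* siRNA C (22.5 and 21.4 CPM).

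**Figure D2:**
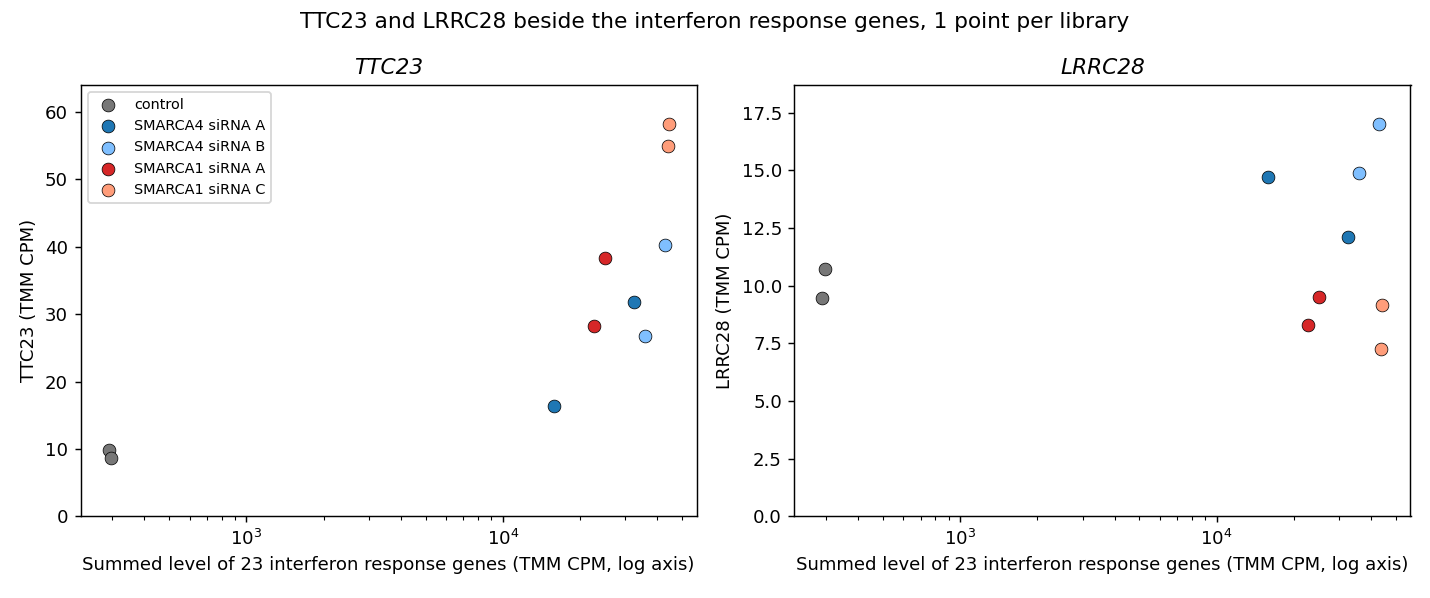
Level of *TTC23* (left) and *LRRC28* (right) in TMM-normalized CPM against the summed level of 23 interferon response genes (log axis), 1 point per library colored by siRNA. The 2 controls sit at 290.2 and 297 CPM of the interferon genes. Within the knockdown libraries *TTC23* has 16.3 CPM at the lowest interferon sum and 58.2 CPM at the highest, without a steady rise in between. By contrast, *LRRC28* separates the knockdown libraries by target.

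*LRRC28* encodes a leucine-rich repeat protein and runs away from *TTC23* on the plus strand, at chr15:99251362-99390729 (ENSG00000168904.15). It measured 9.45 and 10.7 CPM in the controls. *SMARCA4* siRNA A gave 12.1 and 14.7 CPM and siRNA B gave 17.0 and 14.9 CPM. *SMARCA1* siRNA A gave 9.50 and 8.28 CPM and siRNA C gave 7.23 and 9.17 CPM. The *SMARCA4* knockdown libraries were thus all above both controls, and those of *SMARCA1* knockdown were below the higher control and overlapped the lower. The log2 fold change was 0.54 (SE 0.15, adjusted p = 0.014) after *SMARCA4* knockdown and -0.24 (SE 0.15, 95% interval -0.57 to 0.10, adjusted p = 0.22) after *SMARCA1* knockdown.

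The direct difference was the firmest result for *LRRC28*. It was 0.78 on the log2 scale, or 1.71-fold, higher in *SMARCA4* than in *SMARCA1* knockdown (SE 0.12, adjusted p = 0.0011), with no overlap between the 4 libraries of each. All 16 alternative fits kept this call. The rise over control did not hold in every fit. With *SMARCA4* siRNA A alone it was 0.42 (adjusted p = 0.085), with siRNA B alone 0.67 (adjusted p = 0.0095), and without control replicate 1 it was 0.50 (adjusted p = 0.11).

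Because *TTC23* and *LRRC28* start so close together, their ratio was also taken within each library, from the levels per kb. *TTC23* was 1.56 and 1.23 times *LRRC28* in the controls. The ratio was 3.95, 1.67, 3.57 and 2.70 in *SMARCA4* knockdown and 6.09, 5.16, 11.5 and 9.58 in *SMARCA1* knockdown. All 8 knockdown libraries exceeded the controls, and the *SMARCA1* libraries did not overlap with those of *SMARCA4*. The exons of *TTC23* and *LRRC28* do not overlap, and the gene RP11-6O2.3, which overlaps 428 bp of *TTC23* exons on the opposite strand, held only between 4 and 17 counts per library.

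*SYNM*, which encodes the intermediate filament protein synemin, is the nearest to *IGF1R* among the genes followed here (chr15:99098217-99135593, plus strand, ENSG00000182253.15). *SYNM* ends before the 3′ end of *TTC23*. It measured 61.4 and 62.5 CPM in the controls. In *SMARCA4* knockdown it measured 62.4, 67.2, 61.6 and 60.3 CPM. In *SMARCA1* knockdown it measured 42.5 and 65.2 CPM with siRNA A and 65.7 and 64.2 CPM with siRNA C. Except for the low value of *SMARCA1* siRNA A replicate 1, the 10 libraries lay between 60.3 and 67.2 CPM. The log2 fold change was 0.02 (95% interval -0.30 to 0.35, adjusted p = 0.92) after *SMARCA4* knockdown and -0.07 (95% interval -0.39 to 0.26, adjusted p = 0.73) after *SMARCA1* knockdown. Without the low library the latter was 0.07 (adjusted p = 0.44). Without the other library of that siRNA, the fit called a fall of *SYNM* (-0.21, adjusted p = 0.032). The antisense gene RP11-6O2.4 overlaps 26.1% of the *SYNM* exon length and held between 1 and 28 counts per library.

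*MEF2A* encodes a MADS-box transcription factor known for its role in muscle and neuronal genes (chr15:99565417-99716466, plus strand, ENSG00000068305.19). It measured 77.6 and 73.3 CPM in the controls. In *SMARCA4* knockdown it measured 80.1, 64.1, 85.4 and 86.7 CPM. In *SMARCA1* knockdown it measured 49.2, 73.8, 69.2 and 71.8 CPM. The *SMARCA4* libraries lay on both sides of the controls, 3 of the 4 *SMARCA1* libraries lay below them, and the lowest value was again that of *SMARCA1* siRNA A replicate 1. The log2 fold change was 0.06 (95% interval -0.28 to 0.40) after *SMARCA4* knockdown and -0.20 (95% interval -0.53 to 0.14) after *SMARCA1* knockdown, with adjusted p = 0.77 and 0.31 in the edgeR test. Without *SMARCA1* siRNA A replicate 2, the fall after *SMARCA1* knockdown passed the threshold (-0.33, adjusted p = 0.017).

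*LYSMD4* encodes a LysM domain protein and faces *MEF2A* from the other strand (chr15:99715697-99733561, minus strand, ENSG00000183060.16). It measured 9.15 and 8.13 CPM in the controls. *SMARCA4* knockdown gave 8.17, 8.26, 9.08 and 8.34 CPM. *SMARCA1* siRNA A gave 12.9 and 11.4 CPM, and siRNA C gave 9.34 and 8.78 CPM. *SMARCA1* siRNA A was the only siRNA with both libraries above both controls, and the siRNA C library at 9.34 CPM was slightly above them. With that siRNA alone the log2 fold change was 0.50 (SE 0.14, adjusted p = 0.022), and with siRNA C it was 0.07 (adjusted p = 0.72). Over both *SMARCA1* siRNAs it was 0.28 (SE 0.12, adjusted p = 0.084), and the direct comparison of siRNA A with siRNA C gave 0.43 (adjusted p = 0.17). Between the knockdowns *LYSMD4* was the lower with *SMARCA4* siRNAs (-0.31, SE 0.10, adjusted p = 0.033), a call lost in 11 of 16 alternative fits, with adjusted p up to 0.13. The 770 bp shared with *MEF2A* make up 13.5% of the *LYSMD4* exon length, and how reads there were assigned is not given in the sources used here.

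*ARRDC4* encodes an alpha-arrestin, a relative of *TXNIP* that limits glucose uptake (chr15:97960703-97973833, plus strand, ENSG00000140450.9). It was the lowest of the 7 by CPM, with 7.10 and 5.90 CPM in the controls. *SMARCA4* knockdown gave 5.06, 5.66, 4.88 and 4.94 CPM. *SMARCA1* knockdown gave 5.78, 7.23, 7.10 and 5.75 CPM. All 4 *SMARCA4* knockdown libraries were below both controls, yet the log2 fold change of -0.34 did not pass the edgeR test (95% interval -0.70 to 0.02, adjusted p = 0.11). After *SMARCA1* knockdown it was -0.01 (95% interval -0.36 to 0.35, adjusted p = 0.97). With 141 to 222 counts per library, *ARRDC4* had the least depth of the 7 genes.

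*NR2F2* encodes the orphan nuclear receptor COUP-TFII and is the farthest of the 7 genes (chr15:96325938-96340263, plus strand, ENSG00000185551.15). It was also the most abundant. The controls measured 238 and 231 CPM. *SMARCA4* knockdown gave 239.8, 253, 226 and 234 CPM. *SMARCA1* knockdown gave 218, 243, 213 and 221 CPM. Each knockdown taken as a whole overlapped the controls, although both *SMARCA4* siRNA A libraries lay above them and both *SMARCA1* siRNA C libraries below. The log2 fold changes were 0.02 (95% interval -0.18 to 0.22) and -0.07 (95% interval -0.27 to 0.12), with adjusted p = 0.86 and 0.53 in the edgeR test. With 5694 to 8067 counts per library, its intervals were the narrowest of the 7 genes.

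The siRNAs against the same target were compared directly. None of the 7 genes differed between *SMARCA4* siRNA A and siRNA B by the edgeR quasi-likelihood test, against 6.20% of all genes, and none did at an unadjusted p below 0.05 or in DESeq2. None was called between *SMARCA1* siRNA A and siRNA C, where only 2 of all 16899 genes were called (0.0118%). A comparison that calls so few genes says little on whether these siRNAs agree. Here 2 genes, *TTC23* and *LYSMD4*, had an unadjusted p below 0.05, and DESeq2 called none. The log2 difference of *TTC23* was -0.48 (95% interval -1.12 to 0.16) between the *SMARCA4* siRNAs and -0.76 (95% interval -1.40 to -0.12, adjusted p = 0.22) between the *SMARCA1* siRNAs. With no filter on low counts both were called (edgeR adjusted p = 0.043 and 0.00044) at nearly the same log2 differences (-0.48 and -0.74). That fit gave far smaller p-values for *TTC23* elsewhere too. Against control its adjusted p was 1.2e-23 and 9e-42, beside 0.0011 and 0.00026 in the main fit. These calls between siRNAs therefore depend on the filter.

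**Figure D3:**
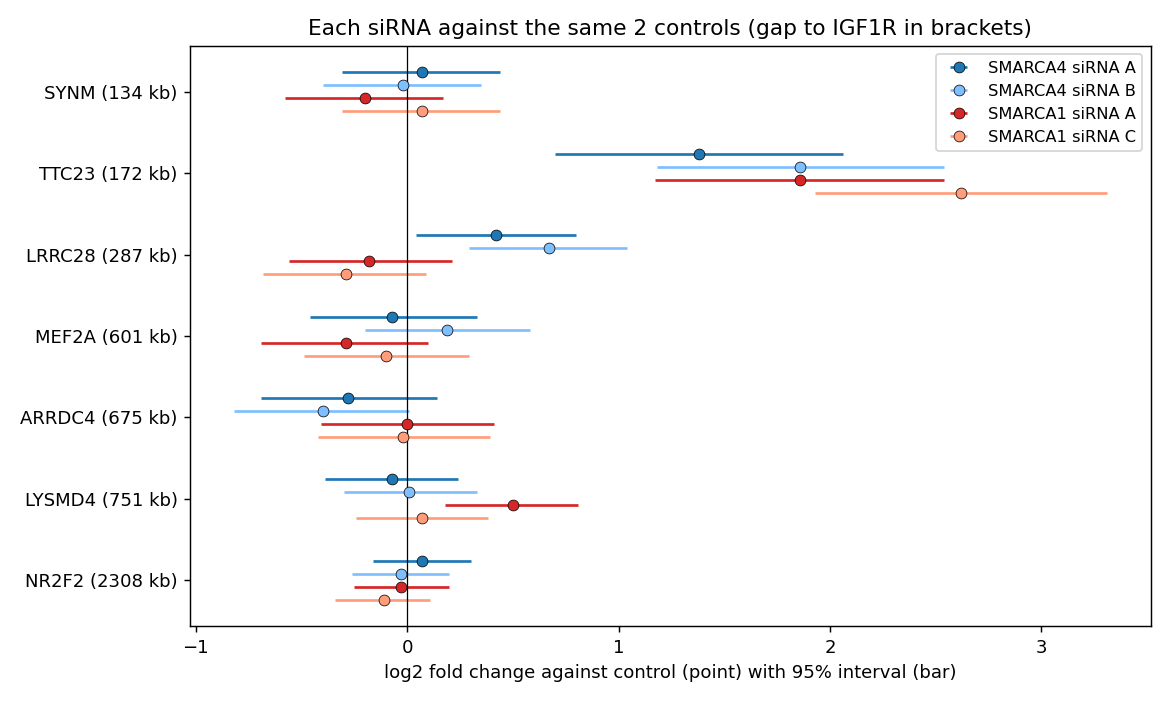
Log2 fold change of each gene against the 2 controls for the 4 siRNAs (points, colored by siRNA) with its 95% interval (bars), from the gene nearest to *IGF1R* at the top to the farthest. The intervals of *TTC23* lie above 0 for all 4 siRNAs, those of *LRRC28* for both *SMARCA4* siRNAs, and that of *LYSMD4* for *SMARCA1* siRNA A.

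The size of these changes did not follow the order outward from *IGF1R* step by step, and a relation with distance was not tested. The largest change was at *TTC23*, place 2 outward. *SYNM* at place 1 was called in neither knockdown, and *LRRC28* at place 3 rose after *SMARCA4* knockdown only. Farther out, *MEF2A*, *ARRDC4*, *LYSMD4* and *NR2F2* were called against control in neither knockdown. Other tested genes within 5 Mb are counted in the next paragraph, and some of them were called. *IGF1R* measured 383 and 396 CPM in the controls, between 469.8 and 644 CPM in *SMARCA4* knockdown and between 258 and 448 CPM in *SMARCA1* knockdown. It passed the test against control in neither (log2 fold changes 0.42 and -0.29, adjusted p = 0.11 and 0.24), but differed between the knockdowns by 0.72 (adjusted p = 0.0071). *IGF1R-AS1* fell from 4.85 and 5.50 CPM to between 1.40 and 3.26 CPM in the 8 knockdown libraries, with log2 fold changes of -1.35 (adjusted p = 0.00028) after *SMARCA4* knockdown and -0.96 (adjusted p = 0.002) after *SMARCA1* knockdown. *TTC23*, whose body begins 172 kb beyond the 3′ end of *IGF1R*, rose in the same libraries. A link between these changes was not tested here. By qPCR, the paper reported that *TTC23* did not change dramatically when *IGF1R-AS1* itself was knocked down in VCaP cells.

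Within 5 Mb of *IGF1R*, 180 genes were listed and 32 were tested, 25 of them besides the 7. These 25 include *IGF1R* and *IGF1R-AS1*, and the latter is among the falls counted here for both knockdowns. After *SMARCA4* knockdown 3 rose and 6 fell (36.0%, against 45.1% of all tested genes). After *SMARCA1* knockdown 1 rose and 7 fell (32.0%, against 46.8% of all tested genes). The log2 fold changes of the 25 ran from -1.68 to 0.96 and from -2.11 to 1.43, so that *TTC23* had the highest value of the window in both comparisons. *MCTP2*, the tested gene next to *NR2F2* on its far side, fell in both (-0.63 and -0.60, adjusted p = 0.0065 and 0.0083). *ADAMTS17*, the next tested gene beyond *LYSMD4*, had a mean of 0.459 CPM and was not called (-0.61 and -1.04, adjusted p = 0.21 and 0.051). *IRAIN*, a long non-coding RNA between *ARRDC4* and *IGF1R*, was not called either at 0.191 CPM (-0.41 and -1.73, adjusted p = 0.64 and 0.087). HSP90B2P, a processed pseudogene inside *LRRC28*, gave 0.08 and 0.05 (adjusted p = 0.89 and 0.93).

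**Figure D4:**
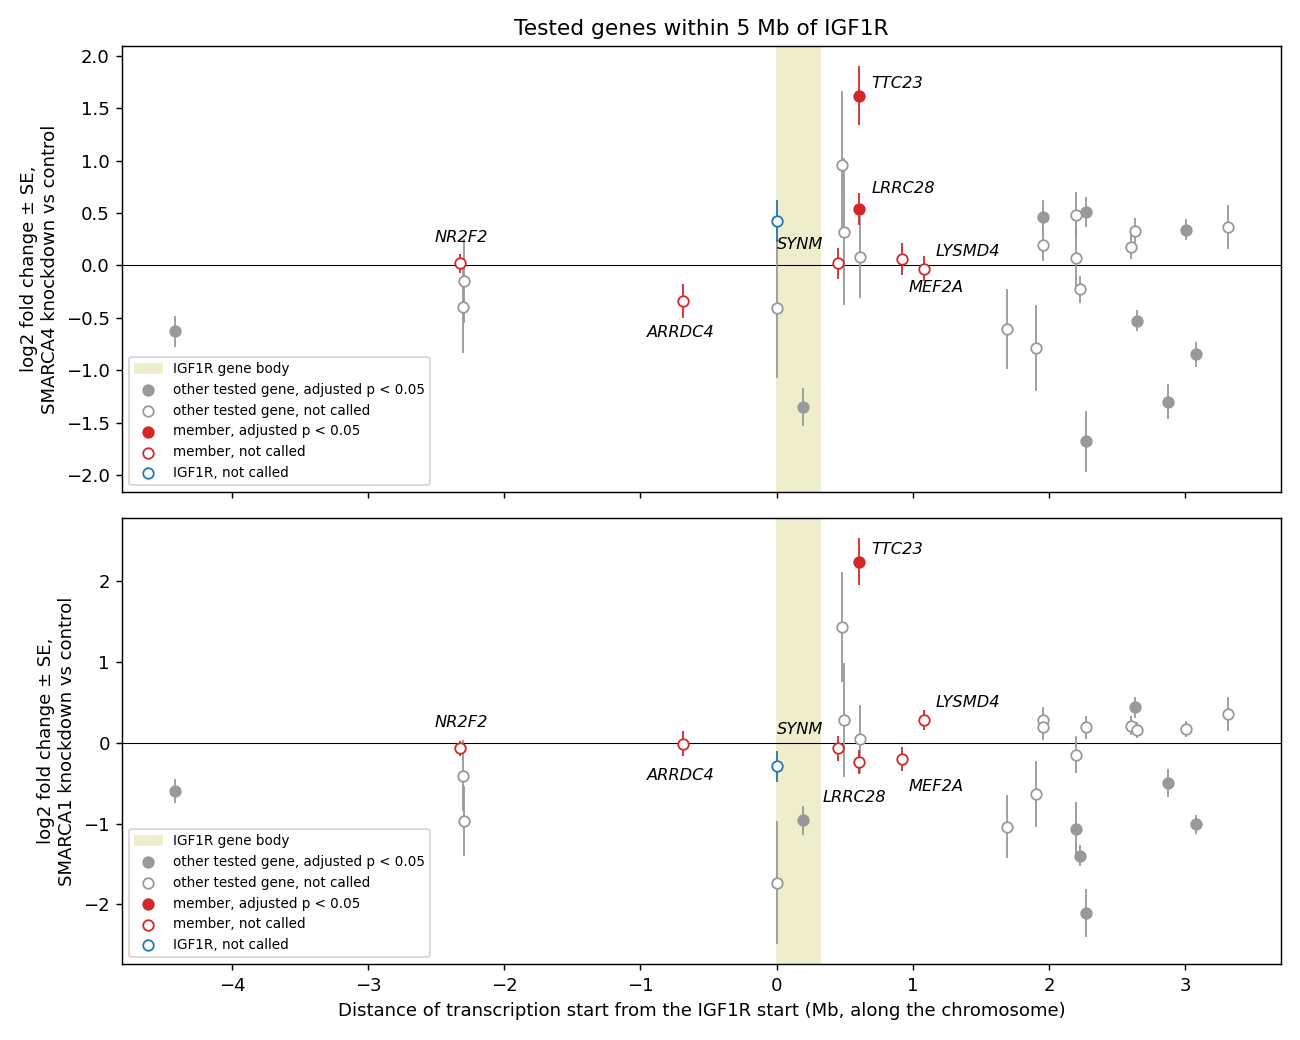
Log2 fold change with its standard error (vertical axis) of the 32 tested genes within 5 Mb of *IGF1R*, by the distance of their transcription start from that of *IGF1R* in Mb (horizontal axis), for *SMARCA4* (top) and *SMARCA1* knockdown (bottom). Filled points passed an adjusted p of 0.05, and *TTC23* is the highest point in both panels, at 1.62 and 2.24.

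The relatives and partners of the 7 genes elsewhere in the genome were counted next, to be read against the 45.1% and 46.8% of all tested genes called after *SMARCA4* and *SMARCA1* knockdown. In the EVC zone list of *TTC23*, 4 other genes were tested, of which 2 rose after *SMARCA4* knockdown and 1 after *SMARCA1* knockdown. *IQCE*, an EVC zone scaffold, rose in both (0.92 and 0.90, adjusted p = 0.00022 and 0.0003), *EVC* rose after *SMARCA4* knockdown (0.92, adjusted p = 0.0067) and had 0.41 after *SMARCA1* knockdown (adjusted p = 0.14), and *SMO*, the Hedgehog signal transducer, had -0.27 and -0.29 (adjusted p = 0.083 and 0.062). *EVC2*, the partner of *EVC*, had no counts in any library.

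Among the filaments and partners of *SYNM*, 6 of 11 tested genes rose and 1 fell in each knockdown (63.6% called, against 45.1% and 46.8% of all genes). The epithelial keratins *KRT8* (1.66 and 1.99), *KRT18* (0.83 and 0.95) and *KRT19* (2.41 and 3.39) rose in both, with adjusted p between 0.00014 and 0.002. The gene that fell was *VIM*, the mesenchymal filament vimentin, at a mean of 3.38 CPM in the controls.

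In the COUP-TF list of *NR2F2*, 1 of 3 other tested genes rose after *SMARCA4* knockdown (33.3% called, against 45.1% of all genes) and 3 of 3 after *SMARCA1* knockdown (against 46.8% of all genes). The paralog *NR2F1* (COUP-TFI) had 0.16 after *SMARCA4* knockdown (adjusted p = 0.42) and rose by 1.16 after *SMARCA1* knockdown (adjusted p = 0.0003), and the co-regulator *ZFPM1* rose in both (0.73 and 1.07, adjusted p = 0.0031 and 0.00042). In the MEF2 list, 2 of 6 rose after *SMARCA4* knockdown (33.3% called), and 3 rose and 2 fell after *SMARCA1* knockdown (83.3% called). *MEF2D* rose in both (0.52 and 0.48, adjusted p = 0.0022 and 0.0033), as did the deacetylase *HDAC7* (0.54 and 0.59, adjusted p = 0.0016 and 0.001), while *HDAC9* had -0.71 (adjusted p = 0.064) and fell by 2.12 (adjusted p = 0.00043).

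In the list of alpha-arrestins and MondoA partners, 3 of 7 other tested genes rose after *SMARCA4* knockdown (42.9%, against 45.1% of all genes) and 4 after *SMARCA1* knockdown (57.1%, against 46.8%), and none fell. *ARRDC2* rose by 0.63 and 1.59 (adjusted p = 0.045 and 0.00052), *ARRDC3* by 0.76 and 0.83 (adjusted p = 0.0058 and 0.0036), and *TXNIP*, the best known MondoA target, had 0.18 (adjusted p = 0.43) and rose by 0.72 (adjusted p = 0.0084). *ARRDC4* itself was called in neither. Of the 5 other LysM domain genes, *NCOA7* alone rose in both knockdowns (20.0% called in each, 1.61 and 2.83, adjusted p = 0.0075 and 0.00049), and the remaining 4 were not called.

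The patterns of the other 6 genes were matched in the same way as for *TTC23*, as a description over 10 libraries that share their controls. The closest gene to *LRRC28* was *PAX1* (r = 0.961), to *SYNM* *RBM33* (0.954), to *MEF2A* *FNIP1* (0.975), to *LYSMD4* *CBY1* (0.948), to *ARRDC4* *PCCA* (0.915) and to *NR2F2* *FAM168A* (0.963). None of the 7 genes was among the 3 closest to another. The nearest pair was *SYNM* and *MEF2A* with r = 0.66, and *TTC23* and *LRRC28* had r = -0.16.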

How the data were processed

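The data are RNA-seq of 10 VCaP libraries, 2 in each of 5 conditions, grouped by the titles and genotypes in the labels. The authors aligned the reads to hg38 with HISAT2 2.1.0 and counted them per gene with featureCounts 1.5.2, per the submitters' processing notes, on a GENCODE annotation to which *IGF1R-AS1* was added. The deposited values are raw counts, not normalized, with each gene's positions and exon length, which the authors' counting tool wrote beside them. The library kit keeps strand, but the strand setting of the counting is not given in the sources used here. Among 809 genes fully covered by exons of a gene on the other strand, 216 (26.7%) reached 10 counts in the sum of the libraries, so counts of overlapping opposite genes are uncertain.

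Genes were filtered with filterByExpr (minimum count 10, minimum total count 15) of edgeR 4.0.16 in R 4.3.3, scaled by TMM and tested by quasi-likelihood, with all 10 libraries in 1 fit of 5 groups and each knockdown taken as the average over its siRNAs. P-values were adjusted by Benjamini-Hochberg over all 16899 genes, with 0.05 as the threshold for a call. The SE was derived from the log2 fold change and its F statistic, and 95% intervals use the test's degrees of freedom. The test was tried on simulated counts first. Replicate libraries of each group differed by more than sampling noise, and unequally so. The chi-square per gene between replicates was 3.69 for *SMARCA1* siRNA C and 5.94 for the controls. It was 21.4 and 39.9 for *SMARCA4* siRNAs B and A and 55.8 for *SMARCA1* siRNA A. The labels do not say whether replicates were separate cultures, so p-values measure the spread between these libraries.

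Alternatives were RLE and upper quartile normalization, no filter, a filter of 1 CPM in 2 libraries, DESeq2 1.42.0, the replicate number as a block, a fit without the other knockdown, the siRNAs taken singly, and leaving out each library. Promoter windows (250 bases before to 50 after a start) came from RefSeq tables of GRCh38.p14, with at least 1 for each of the 7 genes, and gene identifiers from GENCODE v44 by symbol. Genes named are the 7, *IGF1R*, *IGF1R-AS1*, the siRNA targets, tested genes next to or overlapping the 7, up to 3 of each family list (the *VIM* and *EVC2* values were added after they were seen), and the most similar patterns. The genes and lists were chosen with earlier results of these data known. In the marker lists, 1 gene is not reported here.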

Additional observations from a re-analysis of the deposited data

Results flagged for a closer look

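Among the 14 sets of 4 libraries examined (7 genes in each knockdown), 1 held a library far from the other 3. *SYNM* in replicate 1 of *SMARCA1* siRNA A measured 42.5 CPM, and the gap to its nearest neighbor was 0.934 of the whole range, above the 95% critical value of Dixon's test. Chance alone gives such a library in about 1 of 20 sets.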

How the results depend on the processing

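*TTC23* passed the threshold against control in all 19 alternatives of each knockdown, with log2 fold changes from 1.38 to 1.86 (*SMARCA4*) and from 1.86 to 2.62 (*SMARCA1*). Of 602 values of single genes under an alternative, 542 kept their direction and side of the threshold, 20 lost the call, 14 gained it and 26 changed sign, none of the latter a called value. The causes were not tested.

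Leaving out a library gave 1 to 2 genes called after *SMARCA4* knockdown (1 without control replicate 1) and 1 to 4 after *SMARCA1* knockdown (4 without *SMARCA1* siRNA A replicate 2: *TTC23*, *SYNM*, *MEF2A* and *LYSMD4*). It gave 1 to 5 between the knockdowns, 5 without that same library and 1 without either control, either library of *SMARCA1* siRNA C, or replicate 2 of either *SMARCA4* siRNA. Between siRNAs of 1 target it gave 0 to 1 (*SMARCA4*, 1 without siRNA A replicate 1) and 0 to 3 (*SMARCA1*, 3 without siRNA A replicate 2). With *SMARCA4* siRNA A alone 1 gene was called, with *SMARCA1* siRNA A alone 2, and with no filter on low counts 1 in each comparison of siRNAs.

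Sign changes among uncalled genes were small. After *SMARCA4* knockdown, upper quartile normalization gave -0.02 for *SYNM* and *NR2F2*, siRNA B alone gave -0.02 (*SYNM*), -0.03 (*NR2F2*) and 0.01 (*LYSMD4*), siRNA A alone gave -0.07 (*MEF2A*), and leaving out libraries took *LYSMD4* from -0.08 to 0.10. After *SMARCA1* knockdown, siRNA C alone gave 0.07 (*SYNM*), and leaving out libraries took *SYNM* from -0.21 to 0.07 and *ARRDC4* from -0.12 to 0.16. Between the knockdowns it took *SYNM* from -0.04 to 0.27. Between *SMARCA1* siRNAs it took *SYNM* from -0.58 to 0.02, *LRRC28* from -0.01 to 0.30, *MEF2A* from -0.49 to 0.08 and *ARRDC4* from -0.12 to 0.21.

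With the replicate number as a block, 2, 1 and 3 genes were called in the knockdown comparisons and 0 in both comparisons of siRNAs, as without it. The correlations of same-numbered deviations ran from -0.103 to 0.362, above 0.1 in 3 of 10 pairs of groups (*SMARCA4* siRNAs A and B and *SMARCA1* siRNA A among themselves), and no label ties the numbers to a shared batch, so they were not taken to pair the libraries. By distance between starts in place of the gap, 2 genes (*MEF2A* and *ARRDC4*) exchange places. The 2 controls serve both knockdowns.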
